A study of Mus musculus with 4 samples.

Results

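The genes described here encode components and regulators of complement, the cascade of plasma and tissue proteins that marks particles and damaged cells. They are C1ra, C1s1, C2, C3, C4b, C7, Cfb, Cfd and Serping1, taken by symbol, and all 9 were found among the 33641 gene symbols measured in each library. RNA levels came from 4 libraries of cardiac fibroblasts isolated from wild-type C57BL/6J mice aged 12 weeks, 2 given vehicle and 2 given 10 ng/ml TGFbeta, a growth factor that drives fibroblasts towards myofibroblasts. All cells were grown to 80% confluency, were given the crosslinkable uridine analogue 4-thiouridine 20 h and again 4 h before they were lit at 368 nm, and so share that treatment. The series describes RNA eluted from the RNA-binding protein HuR, whereas the sample labels describe total RNA, so the values are given as levels only. The labels do not say whether the 2 libraries of a treatment came from separate cultures or animals, so the p-values reflect only how far these samples spread, which may be technical.

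Complement can start along different routes. In the classical route the proteases C1r and C1s, bound to C1q, cleave C4 and C2. Their fragments form an enzyme, the C3 convertase, that splits C3, the protein on which all routes meet. In the alternative route factor D cleaves factor B to build a second kind of C3 convertase, and the terminal proteins from C5 to C9 then form a membrane pore. C1 inhibitor, encoded by Serping1, blocks C1r and C1s. The liver supplies most of the circulating proteins, and fibroblasts are a known local source of several of them, with interleukin 1, tumour necrosis factor and interferons as known inducers.

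RNA of C3, of both C1 proteases and of C1 inhibitor was lower with TGFbeta, by 1.70-fold to 2.35-fold in mean TPM, a transcript abundance per gene that is scaled to a fixed total and corrected for gene length. These 4 genes passed the test (limma on log2(TPM + 1), Benjamini-Hochberg adjusted p under 0.05 over all 15815 genes whose TPM averaged at least 1), and none of the 9 was called higher. Among all tested genes 4.38% were called lower and 1.54% higher, which is 692 and 244 genes and together 5.92%. An unadjusted limma p under 0.05, in either direction, was found for 3873 of the 15815 genes and for 6 of the 8 tested complement genes. Counts at that p given below also take in both directions. C4b, C2 and C7 did not pass although both of their TGFbeta libraries lay below both vehicle libraries, Cfb showed overlapping groups, and Cfd was too low to be tested. Libraries of the groups did not overlap, with TGFbeta lower, for 7 of the 8 tested complement genes, as for 39.8% of all tested genes. The median log2 change of the 8 was -0.83, beside -0.13 over all tested genes. In bulk samples such as these, fewer cells of a type and less RNA per cell cannot be told apart.

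Added up, the 9 genes held 2066 and 2193 TPM with vehicle and 1084 and 1197 TPM with TGFbeta. C3 and Serping1 made up most of this, with 77.9% and 77.7% of the sum with vehicle and 80.6% and 74.1% with TGFbeta. With vehicle the order of mean TPM was Serping1, C3, C1ra, C4b, C1s1, Cfb, C2, C7 and Cfd. The libraries of C1ra and C4b overlapped, as did those of C4b and C1s1, so these neighbours did not differ beyond their spread. With TGFbeta the order began with the same 3 genes and C1s1 stood before C4b, and the libraries of C1ra, C1s1, C4b and Cfb formed a chain of overlaps.

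**Figure D1:**
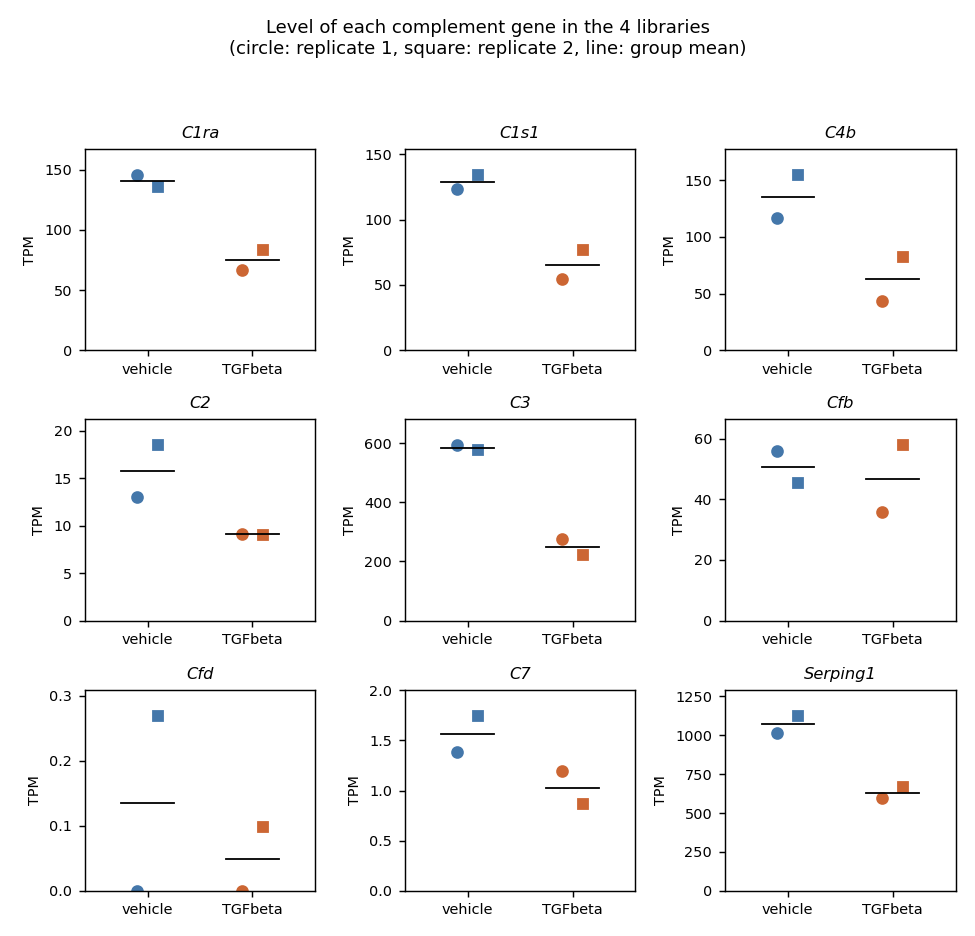
TPM of each of the 9 complement genes (vertical axes, linear, from 0) in the vehicle and TGFbeta libraries, with a circle for replicate 1, a square for replicate 2 and a line for the group mean. C1ra, C1s1, C4b, C2, C3, C7 and Serping1 have both TGFbeta points below both vehicle points, whereas the points of Cfb and Cfd overlap.

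The proteases of the C1 complex were measured as C1ra, the C1r gene (ENSMUSG00000055172.10, chromosome 6, 124512405 to 124523443, plus strand), and C1s1, the C1s gene (ENSMUSG00000038521.17, chromosome 6, 124530345 to 124542359, minus strand). Positions are those of GENCODE M21 on GRCm38, matched by symbol. C1ra had 146 and 136 TPM with vehicle and 67.1 and 83.8 TPM with TGFbeta. C1s1 had 124 and 134 TPM with vehicle and 54.2 and 76.3 TPM with TGFbeta. For both genes every TGFbeta library was below every vehicle library. C1ra fell by 0.90 on the log2 scale (SE 0.16, limma adjusted p = 0.0332) and C1s1 fell by 0.99 (SE 0.19, limma adjusted p = 0.0414). C1r and C1s join in equal numbers in the C1 complex, and within each library their RNA levels stood close to each other: the ratio of C1ra to C1s1 was 1.18 and 1.01 with vehicle and 1.24 and 1.10 with TGFbeta, with overlapping groups. Each gene has a near-identical copy close by, and reads that match both cannot be placed with certainty. These copies were low, C1rb with at most 0.307 TPM and C1s2 with at most 0.644 TPM in any library.

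The 250 bases before the start of C1s1 are shown because the gene fell and its RefSeq start is also its start in GENCODE. They lie at chr6:124542360-124542609 on the minus strand (RefSeq, GRCm38.p6) and read 5′ to 3′, with capitals on matches to the letters TTNNGNAA, a loose form of the site bound by C/EBP factors.
C1s1: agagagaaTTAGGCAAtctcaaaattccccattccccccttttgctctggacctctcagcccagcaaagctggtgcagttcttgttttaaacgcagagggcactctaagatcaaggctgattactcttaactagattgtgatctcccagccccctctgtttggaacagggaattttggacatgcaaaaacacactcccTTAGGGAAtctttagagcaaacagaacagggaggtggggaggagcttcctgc
Matches were at 242 to 235 and at 52 to 45 bases before the start. For C1ra the RefSeq start lies inside the GENCODE gene, so its sequence is not shown. C1ra and C1s1 point towards each other, each starting at its outer end.

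C4b and C2 encode the substrates that C1s cleaves. C4b (ENSMUSG00000073418.4, chromosome 17, 34728380 to 34743882, minus strand) had 117 and 154 TPM with vehicle and 43.3 and 82.5 TPM with TGFbeta. The groups did not overlap, but the libraries of each group were far apart. The log2 change of C4b was -1.15 (SE 0.31, 95% interval -1.91 to -0.40) and did not pass (limma adjusted p = 0.0878). It passed in 4 of 14 alternatives, among them when the filter was a TPM average of 5 (0.0345), when protein-coding genes alone were tested (0.0270) and without TGFbeta replicate 2 (-1.61, limma adjusted p = 0.0465). C4a, a near-identical copy of C4b, was not among the gene symbols measured, and reads from it could be counted in C4b. C2 (ENSMUSG00000024371.14, chromosome 17, 34862604 to 34898265, minus strand) had 13.0 and 18.4 TPM with vehicle and 9.15 and 8.99 TPM with TGFbeta. The higher vehicle value came from replicate 2, and the TGFbeta libraries lay close together. Its log2 change of -0.71 (SE 0.21, 95% interval -1.22 to -0.21) did not pass (limma adjusted p = 0.102). In every library C4b stood above C2, with ratios of 8.94 and 8.38 with vehicle and 4.73 and 9.18 with TGFbeta.

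C3 encodes the central protein, whose cleavage yields the tag C3b and the inflammatory peptide C3a (ENSMUSG00000024164.15, chromosome 17, 57203970 to 57228136, minus strand). C3 had 593 and 577 TPM with vehicle and 276 and 221 TPM with TGFbeta, so the groups were well apart. C3 fell by 1.24 on the log2 scale (SE 0.16, limma adjusted p = 0.0158), or 2.35-fold in mean TPM. Of all tested genes 2.23% had a lower log2 change. By mean TPM C3 ranked 258 of 33641 symbols with vehicle and 610 with TGFbeta. The 5 genes outside the complement lists whose centred log2 values over the 4 libraries lay nearest to those of C3, among 11443 averaging at least 5 TPM, were Oplah, Gm11517, Tcf19, Emilin2 and Apcdd1, at Euclidean distances of 0.07 to 0.09. Such likeness over 4 libraries is a description only.

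The 250 bases before the start of C3 are shown for the same reason as those of C1s1: the gene fell and its RefSeq start is also its start in GENCODE. They lie at chr17:57228137-57228386 on the minus strand (RefSeq, GRCm38.p6), written as for C1s1 with TTNNGNAA matches in capitals.
C3: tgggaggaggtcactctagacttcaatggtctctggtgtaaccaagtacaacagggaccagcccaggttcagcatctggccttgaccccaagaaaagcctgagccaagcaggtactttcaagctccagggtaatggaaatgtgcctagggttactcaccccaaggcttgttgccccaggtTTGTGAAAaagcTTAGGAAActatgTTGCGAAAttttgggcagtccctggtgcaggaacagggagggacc
The 3 matches stood at 70 to 63, 58 to 51 and 45 to 38 bases before the start. At least 1 match on either strand was found in 36.8% of the 32851 promoter windows of that length in the table, and 3 or more in 2.61%. Promoter entries were found for 5 of the 9 genes, C1ra, C1s1, C3, C7 and Cfd, and for C2, C4b, Cfb and Serping1 there was no match. Of the 5, all but Cfd held TTNNGNAA. GGG and CC with 5 free bases between them, a loose form of the NF-kappaB site, were found before C3 and Cfd (45.8% of all windows). In C3 they occurred 4 times, on both strands, and 3 or more were found in 10.7% of all windows. The C3 matches at 197 to 188 and 196 to 187 bases before the start overlap, on opposite strands. TTCNNNGAA (a STAT-type site, 7.02% of all windows) was found before C7, CAGACA (a SMAD-type site, 17.1%) before Cfd and TATAAA (12.4%) before C7. GAAA repeated after 2 free bases (an interferon-type site, 2.98%) and TGANTCA (an AP-1 site, 6.75%) had no match before any of the 5. Both strands were searched, in the RefSeq entry listed first for a gene. A match is a run of letters and not a shown binding site.

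Cfb and Cfd belong to the alternative route. Cfb, which encodes factor B (ENSMUSG00000090231.10, chromosome 17, 34856374 to 34862518, minus strand), had 55.9 and 45.3 TPM with vehicle and 35.8 and 57.8 TPM with TGFbeta. The lowest and the highest value were both TGFbeta libraries. Its log2 change was -0.14 (SE 0.25, 95% interval -0.74 to 0.46) and did not pass (limma adjusted p = 0.773). Its sign depended on the setting, with 0.0125 after median scaling, 0.00752 without vehicle replicate 1 and 0.20 without TGFbeta replicate 1. Cfb lies directly next to C2 on the same strand, and the model Gm20547 spans parts of both; this model was listed at 0 in vehicle 1 and at 0.754, 1.11 and 0.544 TPM in vehicle 2, TGFbeta 1 and TGFbeta 2. Cfd, which encodes factor D or adipsin, a product of fat cells (ENSMUSG00000061780.6, chromosome 10, 79890853 to 79892655, plus strand), was listed at 0 in vehicle 1 and TGFbeta 1 and had 0.269 TPM in vehicle 2 and 0.0988 TPM in TGFbeta 2. It did not pass the filter on low values, and no change is given.

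The ratio of C3 to Cfb, which does not depend on how a library is scaled, was 10.6 and 12.7 with vehicle and 7.70 and 3.83 with TGFbeta. Both TGFbeta ratios were below both vehicle ratios. An exact two-sided permutation test over 4 libraries has 6 arrangements and cannot go below 0.333, so this ratio was not tested. The ratio of C3 to C4b was 5.08 and 3.74 with vehicle and 6.38 and 2.68 with TGFbeta, so its groups overlapped.

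**Figure D2:**
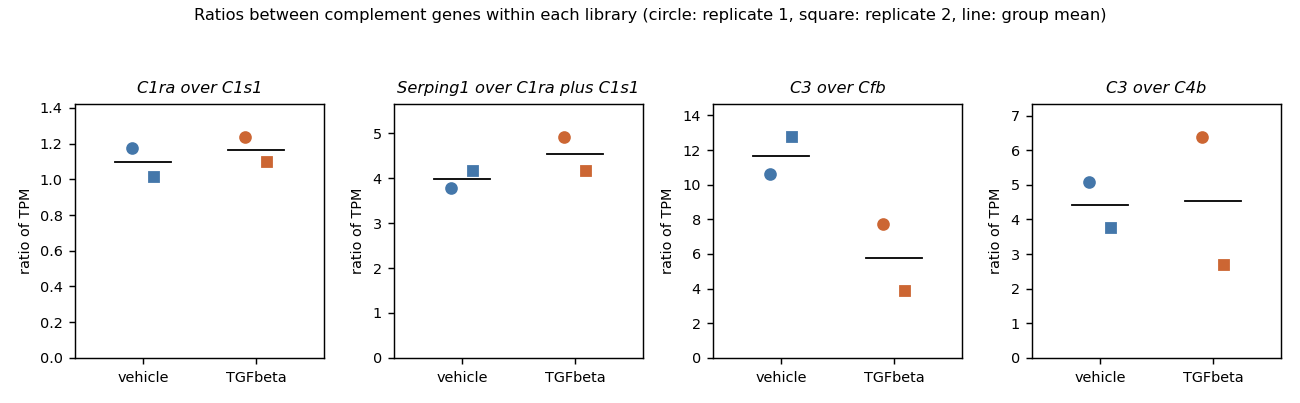
Ratios of TPM between complement genes within each library (vertical axes, linear, from 0), with a circle for replicate 1, a square for replicate 2 and a line for the group mean. C1ra over C1s1 stays between 1.01 and 1.24 in the 4 libraries, and C3 over Cfb is 7.70 and 3.83 with TGFbeta against 10.6 and 12.7 with vehicle.

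C7 encodes a protein that anchors the terminal pore in the membrane (ENSMUSG00000079105.4, chromosome 15, 4988762 to 5063740, minus strand). Its level was near the filter, with 1.39 and 1.74 TPM with vehicle and 1.19 and 0.866 TPM with TGFbeta. The TGFbeta libraries were lower, but the log2 change of -0.34 (SE 0.23) did not pass (limma adjusted p = 0.431).

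Serping1, the gene of C1 inhibitor (ENSMUSG00000023224.12, chromosome 2, 84765387 to 84775444, minus strand), had the highest level of the 9 genes in every library. It had 1017 and 1125 TPM with vehicle and 597 and 665 TPM with TGFbeta, with no overlap. Serping1 fell by 0.76 on the log2 scale (SE 0.15, limma adjusted p = 0.0436), or 1.70-fold in mean TPM, and moved from rank 113 to rank 222 by mean TPM. The ratio of Serping1 to the sum of C1ra and C1s1, its target proteases, was 3.78 and 4.17 with vehicle and 4.92 and 4.15 with TGFbeta. The TGFbeta 2 ratio lay between those of the vehicle libraries, so the groups overlapped.

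These calls rest on few libraries. Of the 4 called genes 0 stayed called by limma without vehicle replicate 1 or without vehicle replicate 2 (6 and 4 of the 8 at an unadjusted p under 0.05), C3 alone without TGFbeta replicate 1, and C1s1 alone, beside a new call of C4b, without TGFbeta replicate 2. C3 stayed called in 10 of 14 alternatives, C1ra in 7, C1s1 in 7 and Serping1 in 6. The log2 changes of the 4 stayed negative in all 14, from -1.40 to -1.08 for C3, -1.06 to -0.74 for C1ra, -1.23 to -0.75 for C1s1 and -0.84 to -0.61 for Serping1. Scaling moved the median of all genes from -0.13 to 0.03 (median scaling) and 0.02 (quantile normalization), with 421 genes called higher and 401 lower in the former and 333 and 401 in the latter. Relative to that median the 4 genes were still lower, though Serping1 lost its call after median scaling (limma adjusted p = 0.100) and C1s1 after both (0.0615 and 0.0545).

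The rest of the pathway was taken from a list of 47 further genes, of which 46 were in the files and 27 were tested. Of these 27, 1 was called lower and 0 higher by limma, beside 4.38% and 1.54% of all tested genes. At an unadjusted p under 0.05, in either direction, were 9 of the 27, beside 3873 of all 15815. Their median log2 change was -0.31, beside -0.13 over all tested genes. The called gene was Colec12, a membrane scavenger receptor with a collectin domain, with 105 and 113 TPM with vehicle and 40.6 and 51.4 TPM with TGFbeta. Colec12 fell by 1.23 (SE 0.16, limma adjusted p = 0.0170). Its call was lost without vehicle replicate 1 (limma adjusted p = 0.126), without vehicle replicate 2 (0.166) and without TGFbeta replicate 1 (0.0609). Cfp, which encodes properdin, a stabilizer of the alternative convertase, had 27.2 and 37.8 TPM with vehicle and 19.1 and 16.2 TPM with TGFbeta (log2 change -0.83, limma adjusted p = 0.0686). C1rl, a C1r-like protease gene beside C1ra, stood at a log2 change of -0.67 (limma adjusted p = 0.0853), and Colec11, a collectin of the lectin route, at -0.77 (limma adjusted p = 0.0886).

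Regulators on the cell surface showed no call among 6 tested genes (limma, 0 called, 1 at an unadjusted p under 0.05), and their median log2 change was -0.05. Over all tested genes 4.38% were called lower and 1.54% higher, 3873 of 15815 had an unadjusted p under 0.05 and the median was -0.13. Beside those shares, 0 calls in lists as small as those of this paragraph set none of them apart. Cr1l, the rodent regulator Crry, had 85.6 and 81.4 TPM with vehicle and 91.9 and 96.4 TPM with TGFbeta. Cd55, decay-accelerating factor, had 68.0 and 83.6 TPM with vehicle and 75.3 and 87.4 TPM with TGFbeta, and its groups overlapped. The log2 changes were 0.17 (SE 0.13) for Cr1l and 0.10 (SE 0.16) for Cd55. That surface and soluble genes differ in their change was not tested. Clu, which encodes clusterin, an inhibitor of the terminal pore, stood at a log2 change of -0.44 (limma adjusted p = 0.360). In the terminal route C8g (-0.50) and C6 (0.02) did not pass, and 0 of 4 tested members were called by limma (0 at an unadjusted p under 0.05). Of 6 tested receptors 0 were called by limma (3 at an unadjusted p under 0.05), with a median log2 change of 0.003. The 3 were C1qbp, which was higher, and Itgb2 (log2 change -0.64) and Cd93 (-0.56), which were lower. C1qbp, which encodes a mitochondrial protein that can bind C1q, had 70.4 and 67.4 TPM with vehicle and 98.4 and 124 TPM with TGFbeta (log2 change 0.67, limma adjusted p = 0.0618), and it passed in 5 of 14 alternatives. Cr2, a receptor for C3 fragments, stood at a log2 change of 0.40 (limma adjusted p = 0.310). C1qa, a chain of C1q and known as a macrophage product, had 1.61 to 3.90 TPM with overlapping groups.

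**Figure D3:**
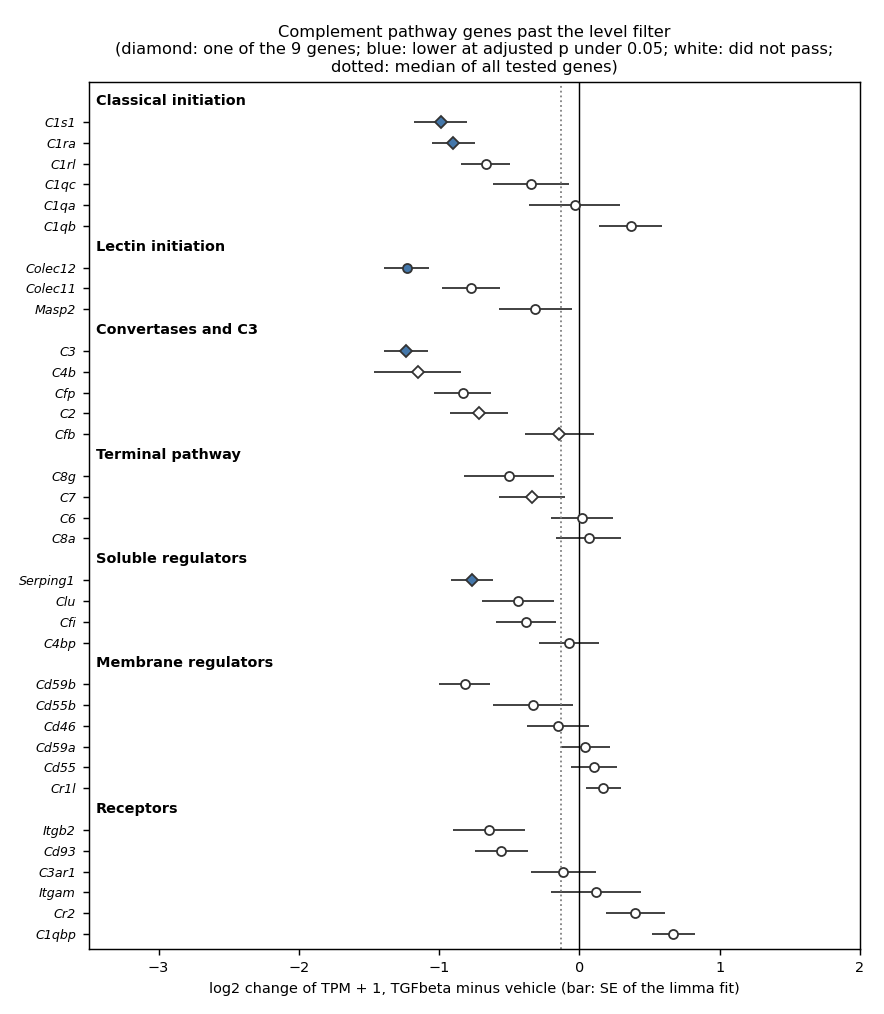
Log2 change of TPM + 1, TGFbeta minus vehicle (horizontal axis, with the SE of the limma fit), for tested complement pathway genes by role, with diamonds for the 9-gene group and blue for genes called lower. The called genes C1s1, C1ra, Colec12, C3 and Serping1 lie between -1.24 and -0.76, and the surface regulators run from Cd59b at -0.82 to Cr1l at 0.17, beside a median of all tested genes of -0.13 (dotted).

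Complement genes are known to be induced by inflammatory cytokines through NF-kappaB, C/EBP, STAT and IRF factors. A list of 18 genes was read beside them, with such factors, cytokine receptors and inhibitors of these routes. The inhibitor genes Nfkbia (log2 change -0.79) and Socs3 (-1.06) were among those called lower. Of these 18, 8 were called lower and 0 higher by limma (16 at an unadjusted p under 0.05), with a median log2 change of -0.79. Over all 15815 tested genes 4.38% were called lower and 1.54% higher, 3873 had an unadjusted p under 0.05 and the median was -0.13. Both TGFbeta libraries lay below both vehicle libraries for all 18, as for 39.8% of all tested genes. Il1r1, the signalling receptor of interleukin 1, had 71.2 and 51.5 TPM with vehicle and 21.7 and 18.6 TPM with TGFbeta, and fell by 1.55 (limma adjusted p = 0.0161). Cebpd, a C/EBP factor of the acute-phase response, had 192 and 187 TPM with vehicle and 86.9 and 63.2 TPM with TGFbeta, and fell by 1.34 (limma adjusted p = 0.0182). Irf1, an interferon-induced factor, had 33.8 and 32.7 TPM with vehicle and 13.9 and 14.5 TPM with TGFbeta, and fell by 1.17 (limma adjusted p = 0.0143). All 3 calls were lost without vehicle replicate 1 (limma adjusted p = 0.116 to 0.141) and without vehicle replicate 2 (0.0933 to 0.168), and those of Il1r1 and Irf1 also without either TGFbeta library (0.0606 to 0.0714). Whether these levels bear on those of the complement genes was not tested.

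Genes of the acute phase are known to be induced by the same cytokines. Of 11 tested, 3 were called lower and 0 higher (limma, 4 at an unadjusted p under 0.05), with a median log2 change of -0.40. Among all tested genes 4.38% were called lower and 1.54% higher, with a median of -0.13. The metalloreductase gene Steap4 fell by 2.28 (limma adjusted p = 0.0116), Ptx3, the gene of a pentraxin that binds C1q, by 1.00 (0.0370) and Lbp, the gene of a lipopolysaccharide-binding protein, by 0.89 (0.0471). Ptx3 had 371 and 277 TPM with vehicle and 148 and 172 TPM with TGFbeta. The other 8 of the 11 were not called, among them Lcn2 (log2 change -0.02), Saa3 (-0.09) and the cytokine gene Il6 (0.58). Of the 11, 9 had a negative log2 change. The Ptx3 and Lbp calls were lost whichever library was left out, and that of Steap4 without each library but TGFbeta replicate 2. Steap4 stayed called in 10 of 14 alternatives, Ptx3 in 8 and Lbp in 4. Hp, the haptoglobin gene, was chosen after its values were seen, with 367 TPM in TGFbeta 2 against 20.6 TPM in TGFbeta 1 and 85.4 and 43.9 TPM with vehicle.

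C2, Cfb and C4b lie in the class III region of the major histocompatibility complex on chromosome 17, and 8 of 9 listed neighbours were tested. Of these, 2 were called lower and 0 higher (limma, 4 at an unadjusted p under 0.05), with a median log2 change of -0.45. Among all tested genes 4.38% were called lower and 1.54% higher, with a median of -0.13. Tnxb, the tenascin X gene next to C4b, had 29.5 and 70.6 TPM with vehicle and 6.08 and 4.36 TPM with TGFbeta, and fell by 2.92 (SE 0.40, limma adjusted p = 0.0197). Dxo, an RNA decapping gene, fell by 0.64 (limma adjusted p = 0.0491). Both calls were lost whichever library was left out, and Tnxb stayed called in 9 of 14 alternatives and Dxo in 4. Atf6b and Nelfe, further out on either side of C4b, had log2 changes of -0.03 and -0.07.

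**Figure D4:**
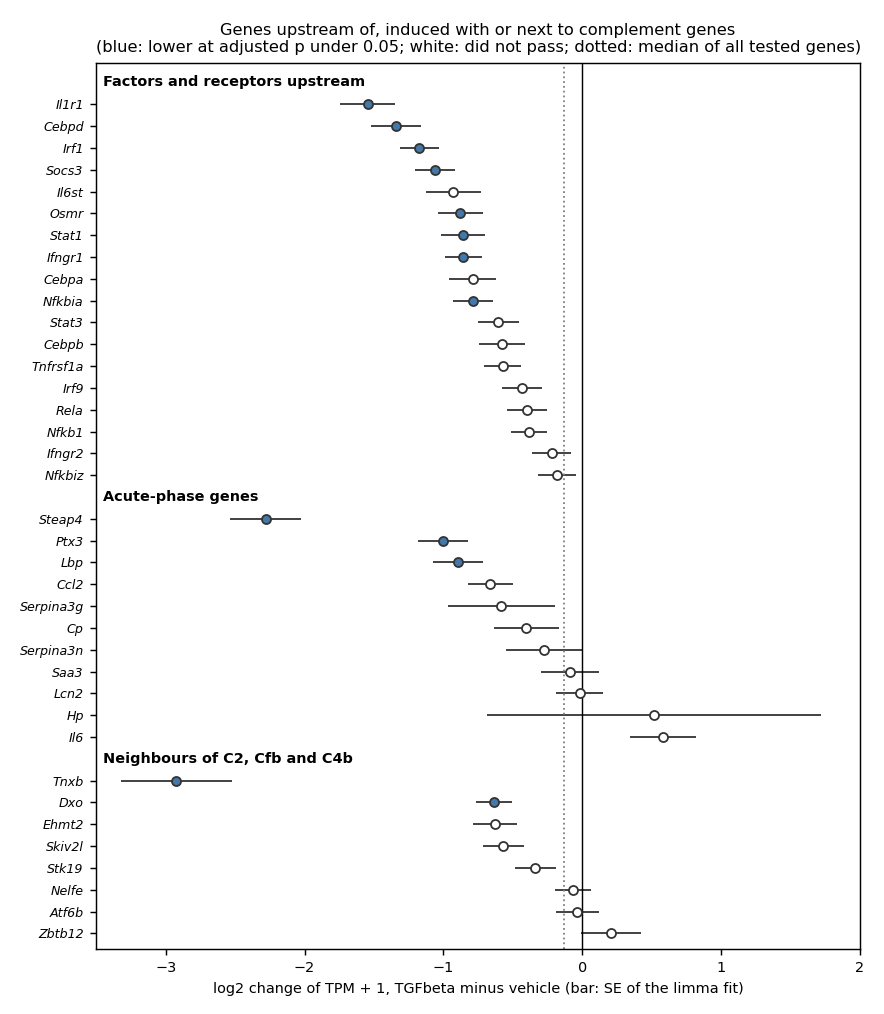
Log2 change of TPM + 1, TGFbeta minus vehicle (horizontal axis, with the SE of the limma fit). Shown are factors, inhibitors and receptors upstream of complement genes, acute-phase genes and chromosomal neighbours of C2, Cfb and C4b, with blue for genes called lower. All 18 upstream genes lie below 0, the acute-phase list runs from Steap4 at -2.28 to the cytokine gene Il6 at 0.58, and Tnxb stands apart at -2.92.

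The treatment was seen in its known target genes, of which 5 of 7 were called higher by limma, beside 1.54% of all tested genes. Among them, Postn, Acta2, Ctgf and Wisp1 had log2 changes of 2.52, 1.03, 1.25 and 2.59, while Smad7 (-0.40) and Col1a1 (0.91) did not pass. Smad7 was lower in both TGFbeta libraries, with 141 and 131 TPM with vehicle and 112 and 94.0 TPM with TGFbeta. Col1a1 was higher in both. The 5 calls were also lost without vehicle replicate 1 and without vehicle replicate 2. All 10 fibroblast markers were present, with summed levels of 19749 to 23698 TPM per library, of which the collagen genes made up the larger part. Of these 10, 2 were called lower and 0 higher by limma, beside 4.38% and 1.54% of all tested genes. At an unadjusted p under 0.05 were 5, among them Col1a1, which was higher, and the median log2 change was -0.34. Both TGFbeta libraries lay below both vehicle libraries for 6 markers and above them for 2, as for 39.8% and 15.5% of all tested genes. Pdgfra, the gene of a platelet-derived growth factor receptor, had 169 and 139 TPM with vehicle and 55.5 and 57.8 TPM with TGFbeta, and fell by 1.42 (limma adjusted p = 0.0106). Tcf21, which encodes a basic helix-loop-helix factor of the fibroblast lineage, had 600.4 and 564 TPM with vehicle and 283 and 255 TPM with TGFbeta, and fell by 1.11 (limma adjusted p = 0.0148). Both calls were lost without vehicle replicate 1 and without vehicle replicate 2 (limma adjusted p = 0.0933 to 0.154), that of Pdgfra also without TGFbeta replicate 1 (0.0513) and that of Tcf21 without TGFbeta replicate 2 (0.0574). Pdgfra and Tcf21 fell beside the complement genes. The other 8 markers were not called, though some of them were also lower in both TGFbeta libraries. The part of the fibroblast markers in the result was not tested. Marker lists of other cells had far lower sums than the fibroblast list. The 14 genes of macrophages and leukocytes summed to 84.2 and 107 TPM with vehicle and 69.5 and 75.4 TPM with TGFbeta. The 8 endothelial genes summed to 46.9 and 51.3 against 41.3 and 43.3 TPM. The fat cell list summed to 30.0 and 29.0 against 15.4 and 31.9 TPM, and Adipoq was listed at 0 in vehicle 1 and TGFbeta 1 and had at most 0.189 TPM. Sums for cardiomyocytes were 70.8 and 113 against 52.6 and 55.2 TPM, for pericytes and smooth muscle 113 and 120 against 84.0 and 86.0 TPM, for mesothelium 14.4 and 17.2 against 12.1 and 12.5 TPM, and for Schwann cells 5.40 and 7.53 against 5.19 and 5.67 TPM. Among the tested markers of other cells, limma called only Notch3 lower and Mcam higher, both of the pericyte and smooth muscle list. No marker was listed at 0 in all 4 libraries. The macrophage, endothelial, cardiomyocyte, pericyte and mesothelial sums were lower in both TGFbeta libraries, as the complement sum was, and their part in the result was not tested. Some of these sums rested largely on 1 gene. Lyz2 made up most of the macrophage sum, with 55.2 and 66.4 TPM with vehicle and 42.9 and 48.1 TPM with TGFbeta. Tnnt2 made up most of the cardiomyocyte sum, with 47.0 and 81.4 against 35.2 and 34.6 TPM. The pericyte sum held Notch3, with 74.0 and 83.9 TPM with vehicle and 21.1 and 17.4 TPM with TGFbeta. Of the 6 tested genes of the pericyte list, 3 were higher in both TGFbeta libraries and 2 lower, with a median log2 change of 0.43.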

How the data were processed

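RNA from 4 libraries, 2 per treatment, was analysed; groups and replicate numbers come from the sample titles. The deposited values are TPM per gene symbol, computed by the authors per the file headers; the aligner, the quantifier, the genome build and the gene models used are, for these files, not given in the sources used here. Each library was checked to total 1000000 TPM, which leaves the read depth unknown and allows no counting interval. No pair of libraries held identical values.

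The comparison used log2(TPM + 1) of the 15815 genes whose TPM averaged at least 1, with limma 3.58.1 in R 4.3.3 (intensity trend, treatment as the only term, two-sided, Benjamini-Hochberg over all tested genes). Log2 changes subtract the vehicle mean from that of TGFbeta on this scale, which understates changes of low genes. Fold values are ratios of mean TPM. The procedure was tested on simulated data.

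Positions come from GENCODE M21 by symbol (32159 symbols matched). The members and lists were chosen with earlier results of these data known. Named are all members; in the rest of the pathway, called genes and the 2 most abundant per role; in the other lists, up to 3 called genes with the largest change; all treatment targets; near-identical copies; and the 5 genes nearest to C3. Of the genes this rule names, 2 are not reported here, though the counts over the lists include them. Cd59b, Itgb2, Cd93, Nfkbia, Socs3, Hp, Il6, Lcn2, Saa3, Atf6b, Nelfe, Pdgfra, Tcf21, Lyz2, Tnnt2, Notch3 and Mcam were named after their values were seen. Alternatives, 14 in all, were pseudocounts of 0.1 and 5, other filters, quantile and median scaling, other variance models, the replicate block, protein-coding genes alone and each library left out.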

Additional observations from a re-analysis of the deposited data

How the results depend on the processing

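Of the 8 tested complement genes, all but Cfb kept their direction in each of the 14 alternatives that gave a value; C7 had none with a mean TPM of at least 5. Depth is unknown, so its limits cannot be given. The count of complement genes called lower, 4 by limma, was 0 with every gene above 0 tested (6 at an unadjusted p under 0.05), 2 after median scaling, 1 without an intensity trend and 0 to 2 with a library left out, where the lone library was taken to vary as the other treatment did. In the rest of the pathway the count lower, 1, was 0 with every gene above 0 (9 at an unadjusted p under 0.05), 4 with a mean TPM of at least 5, 3 in the robust fit, 6 with protein-coding genes only and 0 to 1 with a library left out. Its count higher, 0, was 1 with a mean TPM of at least 5, after quantile normalization, after median scaling, in the robust fit and with protein-coding genes only. Over all tested genes 692 were lower and 244 higher. With every gene above 0 both were 0 (limma, 4348 at an unadjusted p under 0.05). The count lower was 401 after quantile normalization, 401 after median scaling, 437 without a trend and 1298 with protein-coding genes only, and 0 to 138 with a library left out. The count higher was 421 after median scaling, 431 with protein-coding genes only and 0 to 65 with a library left out. Signs turned only for genes near 0: Cfb had 0.0125 after median scaling and -0.48 (without TGFbeta replicate 2) to 0.20 (without TGFbeta replicate 1) with a library left out. C1qa had 0.13 after quantile normalization, 0.12 after median scaling and -0.49 to 0.42 with a library left out. In the same runs C6 ranged from -0.0632 to 0.09998 and Cd55 from -0.0421 to 0.25. The titles share replicate numbers but state no pairing, and same-numbered libraries did not deviate together (Pearson r of -0.05 across 15815 genes, which are not independent replicates). With the replicate block 3 complement genes were called lower, C3, C1s1 and C4b (limma adjusted p = 0.0299 for C4b), and 445 of all genes lower.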
